A study of Mus musculus with 4 samples.

Results

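The genes described here serve the entry of fatty acids into muscle fibres and their breakdown in mitochondria. They are Cd36 and Fabp3 for uptake and intracellular binding, Cpt2 for import into mitochondria, the acyl-CoA dehydrogenase genes Acadl, Acadm and Acads, and the thiolase gene Acaa2. The genes were listed by name, and every probe set whose platform annotation gives one of them as its only gene symbol was taken, which gave 10 probe sets for all 7 genes out of 12488 probe sets and 8251 genes. Transcripts of the mouse gastrocnemius, which is a muscle of the calf, were measured on 4 Affymetrix MG-U74Av2 arrays, each carrying RNA pooled from 10 mice. The groups were intact mice, mice adrenalectomized 1 week earlier, and adrenalectomized mice killed 3 h or 24 h after 0.1 mg of cortisol was given into the peritoneal cavity, with 1 array per group. The labels give the interval since surgery for the uninjected adrenalectomized mice alone, and give no strain, sex, age, time of day or vehicle-injected group. Signals are listed below in the order of these groups unless stated otherwise.

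Adrenalectomy takes away the adrenal source of corticosterone, and the injected cortisol binds the same glucocorticoid receptor. Glucocorticoids are known for shifting muscle from glucose towards fatty acids as fuel. CD36 is a membrane protein that takes up long-chain fatty acids, and FABP3, the heart and muscle fatty acid binding protein, carries them through the cytosol. After activation to acyl-CoA and passage as acylcarnitine, CPT2 restores the acyl-CoA inside the mitochondrion. The acyl-CoA dehydrogenases of long (Acadl), medium (Acadm) and short (Acads) chain length catalyse the first step of each turn of beta-oxidation, and ACAA2 is a thiolase that catalyses the last. Many of these genes are textbook targets of the lipid-sensing nuclear receptor PPAR-alpha, which binds DNA with RXR at a direct repeat of AGGTCA.

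Promoter sequences placed by RefSeq (GRCm38.p6) were available here for 6 of the 7 genes, all but Acaa2, which may have an entry in RefSeq itself. The 250 bases before the transcription start of 3 of them are printed, that of Fabp3 because its signal had the widest range over the arrays, and those of Acadm and Cd36 because they alone held a match to a motif searched. They run 5′ to 3′ on the strand of the gene, and the capitals mark matches to AGGTCA on either strand. The stretches are chr4:130308488-130308737 on the plus strand for Fabp3, chr3:153944644-153944893 on the minus strand for Acadm and chr5:17835897-17836146 on the minus strand for Cd36. The start used for Cd36 is not the 5′ end of the span that RefSeq gives this gene, which lists several transcripts.
Fabp3: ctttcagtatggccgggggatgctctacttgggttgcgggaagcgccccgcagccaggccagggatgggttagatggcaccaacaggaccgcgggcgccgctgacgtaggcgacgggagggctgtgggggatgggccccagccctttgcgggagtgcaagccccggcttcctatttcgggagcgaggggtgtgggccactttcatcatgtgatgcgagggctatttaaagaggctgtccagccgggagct
Acadm: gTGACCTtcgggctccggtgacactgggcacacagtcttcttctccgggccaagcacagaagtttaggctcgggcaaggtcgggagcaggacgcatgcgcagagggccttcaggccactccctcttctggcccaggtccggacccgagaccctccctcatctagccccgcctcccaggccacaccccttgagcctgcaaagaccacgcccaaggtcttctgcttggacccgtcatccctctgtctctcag
Cd36: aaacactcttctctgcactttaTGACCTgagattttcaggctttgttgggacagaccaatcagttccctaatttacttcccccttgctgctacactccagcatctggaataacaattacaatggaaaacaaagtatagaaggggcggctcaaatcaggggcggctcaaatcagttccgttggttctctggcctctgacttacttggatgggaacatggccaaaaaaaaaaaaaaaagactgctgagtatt

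In windows of 300 bases, 250 before and 50 after the start, AGGTCA was found on the opposite strand, read as TGACCT, in Acadm from -249 to -244 and in Cd36 from -228 to -223, and was not in the windows of Fabp3, Acadl, Acads and Cpt2. The same letters occur on either strand in 16.3% of 32851 promoters. The full direct repeat, a repeated AGGTCA with any 1 base between, contains the shorter motif and was in 0 of the 6 windows and in 0.0396% of all. The palindrome bound by the glucocorticoid receptor was in 0 of the 6 and in 0.00913% of all, and its arm AGAACA, searched on both strands, was in 0 of the 6 and in 19.0% of all. The windows were rich in G and C, from 57.3% in Cpt2 to 70.3% in Acadl, except that of Cd36 with 43.0%, against a median of 52.7% over all promoters. These matches are letters in a window and say nothing of binding.

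Signals were MAS 5.0 intensities scaled to the same trimmed mean of 500 on every array, and signals below 100 were set to that floor. From 63.0% to 64.4% of probe sets reached the floor, and the median signal was between 189 and 199.6. All 9 fast fibre and all 9 slow fibre markers were at or above the floor on every array. With 1 array per group no comparison has a replicate check, no test was possible, and pool, array and fluidics module (1 to 4, 1 per array) cannot be told apart from group. The only error measure is technical: how far the log2 ratios from a pair of probe sets of the same gene differ, as an SD of these differences divided by the square root of 2. For 132 genes with both sets at a mean signal of at least 1000 this error SD was 0.16 between adrenalectomized and intact muscle. Relative to adrenalectomized muscle it was 0.16 at 3 h and 0.21 at 24 h. Over 926 to 928 genes of any brightness these SDs were 0.24, 0.28 and 0.32. The first set of SDs applies to 6 of the 7 genes and the second to Cd36, whose mean signal was 496. A signal compares arrays for 1 probe set and does not rank genes against each other.

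In the 6 comparisons between arrays, from 4.91% to 11.6% of all genes were past 1.5-fold. For genes with a mean signal of at least 1000 it was 1.30% to 4.82%. A count of 0 among 7 is near those shares. None of the 7 fatty acid genes was past 1.5-fold in any comparison, with each array scaled to its trimmed mean. Scaling on ribosomal protein genes instead, which lowered the median of all genes at 3 h and 24 h to -0.20 and -0.27 against adrenalectomized muscle, put Fabp3 past 1.5-fold in 4 comparisons and Cd36 in 1, and neither relative to that median. Of the 7, 5 had their highest signal in intact muscle and lower signals on both cortisol arrays than on both arrays without cortisol. These were Fabp3, Cpt2, Acadl, Acadm and Acaa2, and their lowest signal was 1.23-fold to 1.45-fold below their highest. Cd36 had its highest signal after adrenalectomy alone. Of the 2 probe sets of Acads the brighter was highest at 3 h and the dimmer in intact muscle, and which measures Acads better cannot be settled from the files.

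**Figure D1:**
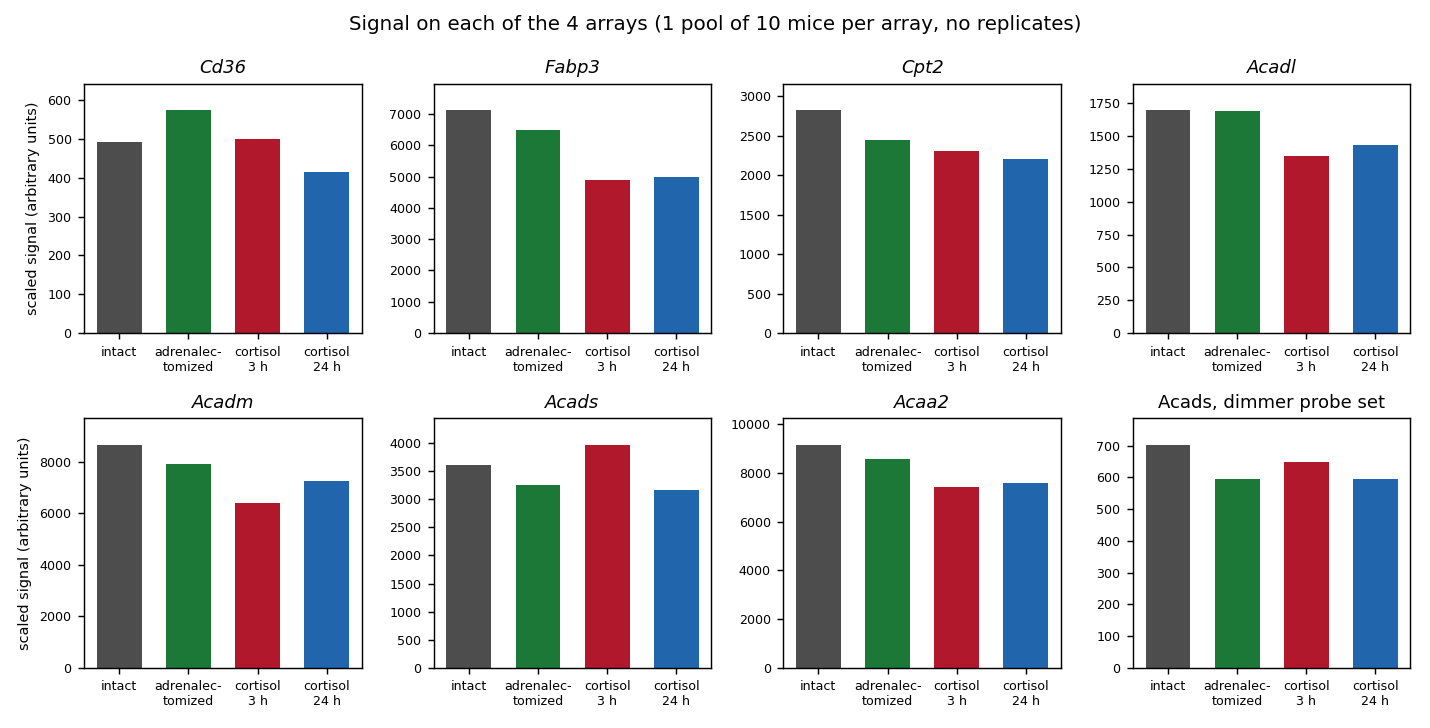
Scaled signal (linear, arbitrary units, axis from 0) on the 4 arrays, 1 bar per array, for each of the 7 genes and for the dimmer probe set of Acads; there are no replicates and so no error bars. Fabp3, Cpt2, Acadl, Acadm and Acaa2 are highest on the intact array and lower on both cortisol arrays than on the other two, Cd36 is highest at 574 after adrenalectomy, and the brighter set of Acads is highest at 3966 at 3 h.

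For uptake and binding, Fabp3 read 7121 in intact muscle, 6503 after adrenalectomy, 4903 at 3 h and 5005 at 24 h. The arrays thus fell into a higher pair without cortisol and a lower pair with it. The difference from adrenalectomized muscle was 1.33-fold lower at 3 h (log2 ratio -0.41, error SD 0.16) and 1.30-fold lower at 24 h (-0.38, error SD 0.21). Within the lower pair 24 h and 3 h differed by 0.03, within 1 error SD, as did intact and adrenalectomized muscle at 0.13. Against intact muscle Fabp3 was 1.45-fold lower at 3 h (-0.54), just outside the central 95% of the 1535 genes with a mean signal of at least 1000 (-0.53 to 0.61), and 1.42-fold lower at 24 h (-0.51), inside it (-0.54 to 0.42).

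Cd36 read 492 in intact muscle, 574 after adrenalectomy, 501 at 3 h and 416 at 24 h. It was the only one of the 7 that was higher after adrenalectomy than before, 1.17-fold (log2 ratio 0.22, error SD 0.24), and it was 1.38-fold lower at 24 h than in adrenalectomized muscle (-0.46, error SD 0.32). Every neighbouring pair in its order, adrenalectomized above 3 h above intact above 24 h, lay within 1 error SD. A second Cd36 probe set, chosen under relaxed rules, read below 2.50 on all arrays and carried no information.

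The carnitine step was represented by Cpt2, with 2819 in intact muscle, 2445 after adrenalectomy, 2306 at 3 h and 2197 at 24 h. Its largest step between neighbours was that from intact to adrenalectomized muscle, 1.15-fold lower (log2 ratio -0.21, error SD 0.16), and the later steps were within 1 error SD. Cpt2 was the only one of the 7 that differed from intact to adrenalectomized muscle by more than 1 error SD. Of the genes with a mean signal of at least 1000, 8.73% were lower than Cpt2 in that comparison. A second Cpt2 probe set read at most 6.99 on any array, below the floor throughout.

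Of the dehydrogenases, Acadm read 8648 in intact muscle, 7920.4 after adrenalectomy, 6418 at 3 h and 7254 at 24 h. It was lowest at 3 h, 1.23-fold below adrenalectomized muscle (log2 ratio -0.30, error SD 0.16), and 1.13-fold higher again at 24 h than at 3 h, a step within 1 error SD. Acadl read 1696, 1689, 1347 and 1431 in the same order of arrays. Its intact and adrenalectomized signals were nearly equal (log2 ratio -0.01), and it was 1.25-fold lower at 3 h (-0.33) and 1.18-fold lower at 24 h (-0.24, error SD 0.21) than in adrenalectomized muscle.

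Acads, the short-chain enzyme gene, had a brighter probe set, chosen under relaxed rules, with 3603 in intact muscle, 3257 after adrenalectomy, 3966 at 3 h and 3165 at 24 h. The dimmer set read 702, 595, 649 and 596 in the same order. At 3 h against adrenalectomized muscle the brighter set was higher by a log2 ratio of 0.28 (error SD 0.16). The dimmer set was higher by 0.12, within the error SD of 0.28 for genes of any brightness. Acadl and Acadm were lower in that comparison. Against intact muscle the sets went opposite ways at 3 h, with 0.14 for the brighter and -0.11 for the dimmer set.

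Acaa2, the thiolase gene, read 9136 in intact muscle, 8558 after adrenalectomy, 7401 at 3 h and 7582 at 24 h. It was 1.16-fold lower at 3 h (log2 ratio -0.21, error SD 0.16) and 1.13-fold lower at 24 h (-0.17, error SD 0.21) than in adrenalectomized muscle. The order of arrays was the same as for Acadl, Acadm and Fabp3, and every step between neighbours was within 1 error SD.

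**Figure D2:**
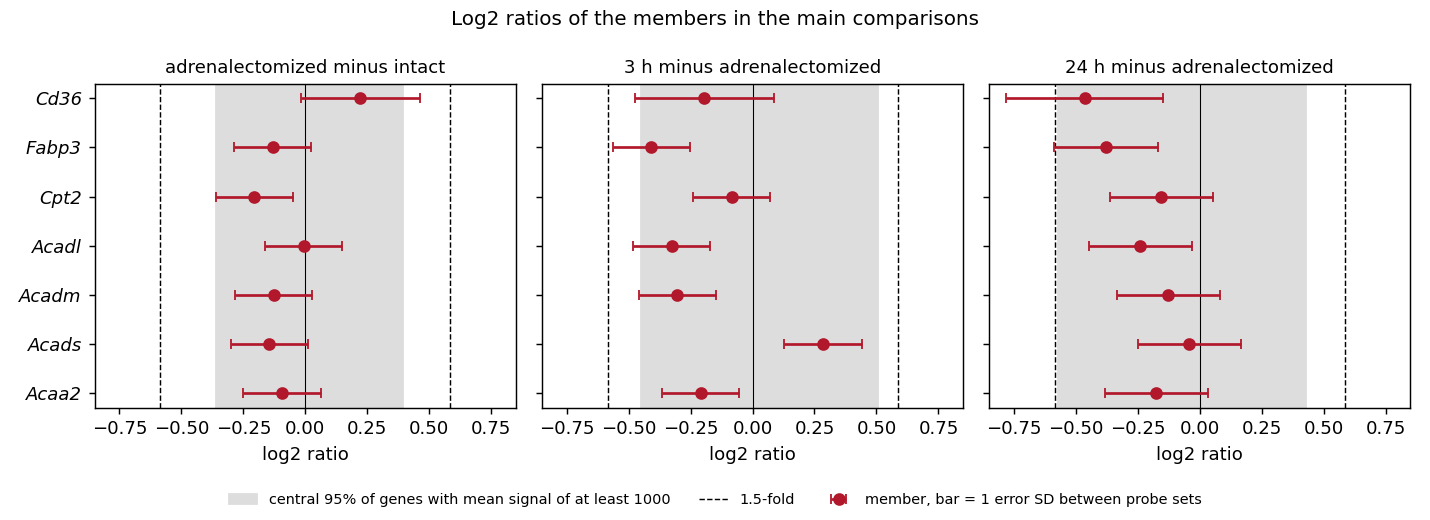
Log2 ratio of each of the 7 genes (points) in the 3 main comparisons, with bars of 1 error SD between probe sets (that over genes of any brightness for Cd36), dashed lines at 1.5-fold and a grey band for the central 95% of the 1535 genes with a mean signal of at least 1000. Every point lies between the dashed lines; at 3 h Fabp3 is lowest at -0.41 and Acads highest at 0.28.

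In adrenalectomized against intact muscle 0 of the 7 genes were past 1.5-fold, where 4.91% of 6112 genes were. Their median log2 ratio was -0.13, against 0.01 over all genes and -0.02 over those with a mean signal of at least 1000, called the brighter genes from here on. Of the 7 ratios, 6 were negative, that of Cd36 excepted, but Acaa2 and Acadl turned positive when arrays were scaled on ribosomal protein genes and Acadl also under quantile normalization. By any amount, 48.0% of all genes and 57.7% of the brighter ones were lower. Past 1.5-fold were 1.30% of the brighter genes.

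At 3 h against adrenalectomized muscle 0 of the 7 were past 1.5-fold, where 9.82% of 6168 genes and 3.58% of the brighter ones were. The median of the 7 was -0.21, against -0.02 over all genes and -0.01 over the brighter ones, and 6 were lower, as were 53.2% of all and 52.1% of the brighter genes by any amount. Of the 7 ratios, 5 exceeded 1 error SD and those of Acadl and Fabp3 exceeded 2. The share of all genes past these limits was not counted. Over the brighter genes the ratios had an SD of 0.31, wider than their error SD of 0.16, and over all genes 0.41. The signs held under each scaling and every other alternative. At 24 h against adrenalectomized muscle 0 were past 1.5-fold, where 10.0% of 6228 genes and 3.13% of the brighter ones were, and the median was -0.17 against 0.01 over all genes. All 7 were lower, as were 48.6% of all and 50.6% of the brighter genes, though the dimmer set of Acads was level between these arrays (log2 ratio 0.002). Fabp3, Cd36 and Acadl exceeded 1 error SD and none exceeded 2. At 24 h too the share of genes past these limits was not counted, and the ratios had an SD of 0.38 over all genes and 0.27 over the brighter ones.

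Between 24 h and 3 h 0 of the 7 were past 1.5-fold, where 11.6% of 6229 genes and 3.65% of the brighter ones were. The median was 0.03, with Acadm highest at 0.18 and Acads lowest at -0.33. By any amount 3 of the 7 were lower, as were 44.7% of all and 47.6% of the brighter genes. The median turned to -0.01 under median scaling and to -0.06 under ribosomal scaling. Against intact muscle 0 were past 1.5-fold at 3 h, where 9.95% of genes and 4.82% of the brighter ones were, and 0 at 24 h, where 9.99% and 2.93% were. The medians were -0.30 at 3 h and -0.25 at 24 h. At 3 h 5 of the 7 were lower, as were 52.1% of all and 57.5% of the brighter genes by any amount. At 24 h all 7 were lower than in intact muscle under every alternative, between -0.19 for Acads and -0.51 for Fabp3, where 46.2% of all genes and 54.6% of the brighter ones were lower by any amount. These comparisons share arrays, so the values are not separate evidence.

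Read as an order of the 4 arrays, both cortisol arrays were below both arrays without cortisol for 5 of the 7 genes. The same held for 18.4% of the 6416 genes that reached the floor and for 22.1% of those with a mean signal of at least 1000. The intact array was highest for 5 of the 7, against 22.3% and 30.4%. These orders were looked at after the signals had been seen. Acaa2 had similar profiles to Acadl, Cpt2 and Acadm: the root mean square difference of the centred log2 signals over the 4 arrays was 0.043, 0.0547 and 0.055. Other genes were nearer, since these 3 ranked 22, 59 and 60 among 2852 genes by likeness to Acaa2. Acads differed from Acaa2, Acadl and Acadm by 0.19 to 0.24. Of 2852 other genes with a mean signal of at least 500, those most like Fabp3 by this measure were Slc27a1 at 0.02, Gsn at 0.05 and Kif1b at 0.05. Slc27a1 read 929, 857, 649.8 and 676.

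The rest of the fatty acid pathway was described from 8 lists by role. Of the genes other than the 7, 46 were compared between adrenalectomized and intact muscle and 47 in each of the other comparisons. Past 1.5-fold were 1 gene higher and 0 lower after adrenalectomy, where 2.67% of all genes were higher and 2.24% lower by that fold. At 3 h against adrenalectomized muscle 4 were higher and 2 lower, where 5.07% and 4.75% of all genes were. At 24 h against adrenalectomized muscle 1 was higher and 1 lower, where 5.49% and 4.51% were, and the total of 2 became 4 under median scaling, 11 under ribosomal scaling and 1 with a floor of 200. The total of 6 at 3 h became 3 with that floor. The medians were -0.03, -0.07 and -0.08 in these comparisons.

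Among uptake, binding and lipolysis genes none of the 13 measured was past 1.5-fold in a main comparison. Lpl, the lipoprotein lipase that frees fatty acids from circulating triglyceride, read 6686, 6290.0, 5472 and 4817, and was 1.31-fold lower at 24 h than in adrenalectomized muscle. Slc27a1, a fatty acid transport protein gene, was lower by log2 ratios of -0.40 at 3 h and -0.34 at 24 h. Fabp5, a binding protein gene of skin and fat among other tissues, was 1.78-fold higher at 3 h and 1.69-fold higher at 24 h than in intact muscle. In the carnitine group Slc22a5, the carnitine transporter gene, was 1.76-fold higher after adrenalectomy and 1.51-fold lower at 3 h than after adrenalectomy, from low signals of 137, 241, 159.5 and 198. Neither call held with a floor of 200, and median scaling also ended the second (log2 ratio -0.57). Cpt1a, the outer membrane carnitine palmitoyltransferase gene of liver type, had log2 ratios of 0.40, -0.43 and -0.18 in the main comparisons, and Slc25a20, the acylcarnitine carrier gene, had -0.19, -0.15 and 0.09.

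Of the mitochondrial beta-oxidation list, 10 genes reached the floor and both cortisol arrays were lowest for 7 of them, where 18.4% of all genes and 22.1% of the brighter ones had that order. Besides Acadl, Acadm and Acaa2 these were Hadhb, Hadh, Eci1 and Decr1, that is 4 of the 6 that are not among the 7 genes. Hadhb, the thiolase subunit of the trifunctional protein, read 7260 in intact muscle, 6646 after adrenalectomy, 5994 at 3 h and 6006 at 24 h. Hadh, the hydroxyacyl-CoA dehydrogenase gene, was 1.39-fold and Decr1, a reductase for unsaturated fatty acids, 1.55-fold lower at 24 h than in intact muscle. Eci2 and Echs1, an isomerase and a hydratase gene, were not lower at 24 h than after adrenalectomy, with log2 ratios of 0.30 and 0.03. The probe set of the very-long-chain dehydrogenase gene Acadvl was below the floor on all 4 arrays, and Cpt1b, Acsl1 and Hadha, other main genes of the pathway, were not analysed here because no probe set carried them as a single symbol. Of 3 activation and 6 peroxisomal genes compared, 0 were past 1.5-fold in a main comparison. Of the electron transfer genes Etfdh was 1.48-fold lower at 24 h than in adrenalectomized muscle, while Etfa differed by 0.05.

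Of the 6 pathway genes past 1.5-fold at 3 h against adrenalectomized muscle, 4 were on the list of regulators. That list had 10 genes compared, and 9.82% of all genes were past that fold. Ppara read 426 in intact muscle, 367 after adrenalectomy, 841 at 3 h and 367 at 24 h, which is 2.29-fold higher at 3 h and level again at 24 h. Nrip1, a corepressor gene of nuclear receptors, was 1.80-fold higher at 3 h, and Ucp3, a mitochondrial uncoupling protein gene, was 1.66-fold higher, a call that ribosomal scaling lowered to a log2 ratio of 0.54. Ppargc1a, a coactivator gene of mitochondrial biogenesis, was at least 1.87-fold lower. Acot1, an acyl-CoA thioesterase gene and PPAR-alpha target, was at least 1.76-fold higher at 3 h and at least 1.62-fold higher at 24 h, with signals of 176 and 162 and values below the floor on both other arrays. Ribosomal scaling ended its call at 24 h (log2 ratio 0.55). All signals of Ppargc1a and Acot1 were below 200, so neither could be compared with a floor of 200. Pdk4, whose product blocks pyruvate entry into the citrate cycle, read 6455 in intact muscle, 7443 after adrenalectomy, 9322 at 3 h and 2425 at 24 h, and was 3.07-fold lower at 24 h than in adrenalectomized muscle. Ppard had log2 ratios of -0.43, 0.37 and 0.24. All of these values come from the same arrays as those of the 7 genes.

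**Figure D3:**
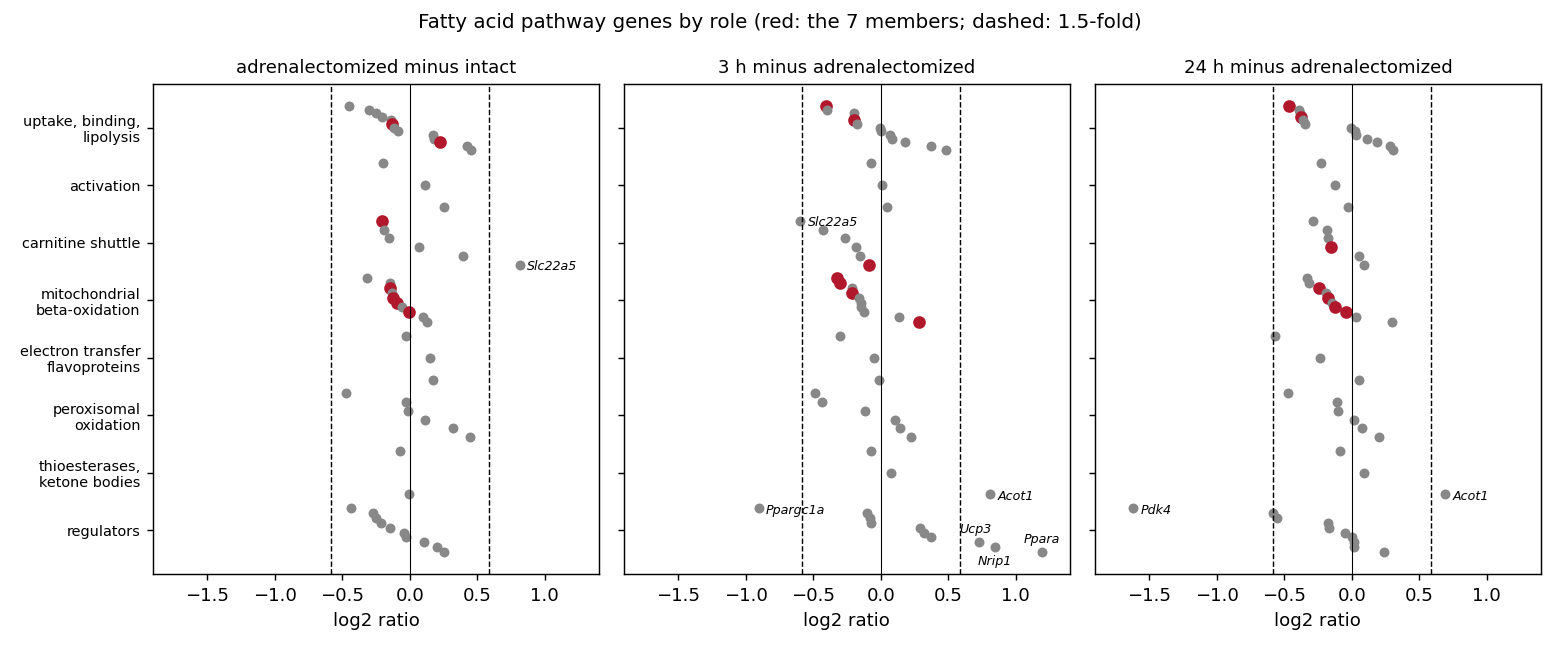
Log2 ratios of the measured pathway genes in the 3 main comparisons, grouped by role; red points are the 7 genes, grey points the others, dashed lines mark 1.5-fold, and genes past it are named. The regulators at 3 h reach from -0.90 for Ppargc1a to 1.20 for Ppara, and Pdk4 is at -1.62 at 24 h, while every red point lies inside the dashed lines.

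Markers of fibre type and of other cells also differed between these arrays. For the 9 slow fibre markers the median difference from adrenalectomized muscle was -1.94 (log2) at 3 h and -2.02 at 24 h. At each time 8 of the 9 were at least 2-fold lower, where 1.17% and 1.06% of all genes were, and their summed signal was 74867, 82352, 29987 and 28362. Fabp3 is more abundant in slow and oxidative fibres. Its ratio at 3 h was -0.41, where the 9 markers ran from -2.04 for Tnnt1 to -0.53 for the myoglobin gene Mb. After adrenalectomy 8 of the 9 markers were higher than in intact muscle, while Mb (-0.06) and Fabp3 (-0.13, within 1 error SD) were lower. The part of slow fibre content in the lower Fabp3, Acadl, Acadm and Acaa2 signals was not tested. In such bulk tissue fewer cells of a type and less RNA per cell cannot be told apart. The 9 fast fibre markers had medians of -0.06 at 3 h and 0.02 at 24 h.

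Mitochondrial respiratory chain and citrate cycle genes, which mark oxidative capacity, had medians of -0.07, within 0.01 of 0 and -0.02 in the main comparisons over 12 genes, with none past 1.5-fold. The summed signal of the 13 genes of this list on the array, with Cox5a below the floor on all arrays, was 62369.9, 59978, 59584 and 59717. Both cortisol arrays were lowest for 3 of the 12, near the 18.4% of all genes and 22.1% of the brighter ones with that order. The difference between this list and the beta-oxidation list was not tested.

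Cd36 is also expressed by fat and endothelial cells. The summed signal of 7 adipocyte markers was 4022, 3357, 3227 and 3297, with Pparg below the floor on all arrays, and that of 8 endothelial markers was 4822, 5413, 6023 and 5817. Taken marker by marker, the endothelial list had median log2 ratios of 0.21, -0.003 and -0.17 in the main comparisons. Of the 8 markers, 4 were lower at 3 h and 6 at 24 h than in adrenalectomized muscle. Cd36 had 0.22, -0.19 and -0.46. At 24 h against intact muscle the endothelial median was 0.19 and Cd36 was at -0.24. The adipocyte list had medians of -0.24, 0.02 and 0.02 in the main comparisons and -0.18 at 24 h against intact muscle. The part of both cell types in the Cd36 signal was not tested. Macrophage markers summed to 2661, 3053, 2119 and 2765, with 4 of the 6 lowest on both cortisol arrays. Marker by marker their median log2 ratios were 0.20, -0.52 and -0.16 in the main comparisons, and -0.11 at 24 h against intact muscle. Against adrenalectomized muscle 6 of the 6 were lower at 3 h and 5 at 24 h, where 53.2% and 48.6% of all genes were. Erythroid markers summed to 6560.4, 8465, 9059 and 8228. Hepatocyte markers summed to 2249, 1564, 788 and 561, with Alb, the albumin gene, and 3 other markers of that list lowest on both cortisol arrays. That order was shared by 18.4% of all genes. Epidermis and hair markers summed to 949, 1101, 7659 and 2082, with the basal keratin genes Krt5 and Krt14 below the floor throughout. The part of these cells in the signals of the 7 genes was not tested.

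**Figure D4:**
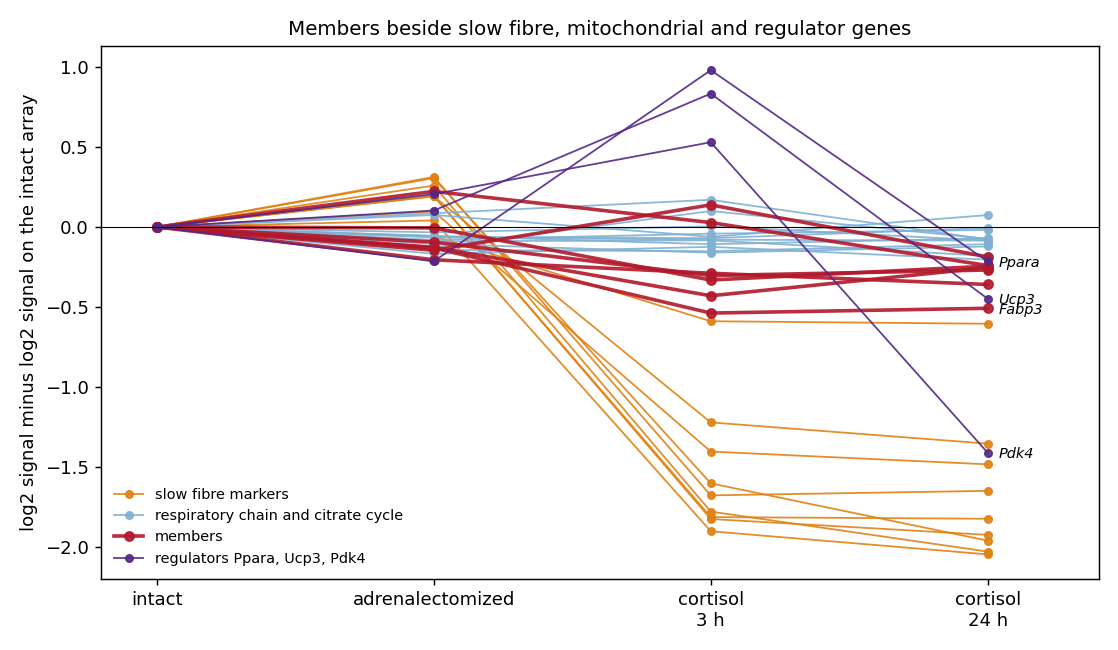
Log2 signal on each array minus that on the intact array, 1 line per gene, for the 7 genes (red), 9 slow fibre markers (orange), 12 respiratory chain and citrate cycle genes (light blue) and Ppara, Ucp3 and Pdk4 (purple). The red lines stay within 0.54 of the intact level, the slow fibre lines go down to about -2.05, and Ppara is 0.98 above it at 3 h.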

How the data were processed

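Total RNA of gastrocnemius, pooled over 10 mice per group, was hybridized to 1 array per group, and the authors deposited linear MAS 5.0 intensity signals, per the labels. The deposited values already had a trimmed mean near 500 on every array. From these signals 66 control probe sets were left out, each array was rescaled so that the mean of the other 12422, without 2% at each end, was 500, signals below 100 were set to 100 and log2 ratios were taken (pandas 2.3.3). Symbols came from the platform annotation; 10817 of 10833 probe sets with 1 symbol matched RefSeq by gene ID. Each gene was represented by the brightest of its probe sets on average. With 1 array per group no test was made; the number of arrays limits the precision. Genes past 1.5-fold or 2-fold were counted beside all genes. Named were the 7 genes, pathway genes past 1.5-fold in a main comparison, a set of key enzymes and regulators and the 3 nearest genes of the member with the widest range; Fabp5, Decr1, Etfdh and other pathway genes outside this rule were chosen after their values were seen. The genes and lists were chosen with earlier results of these data known. The calling of genes was tested on simulated data with larger changes called at 2-fold, so the calls at 1.5-fold were not tested. Scaling, floor and probe set choice were varied. Protein sequences were not used here.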

Additional observations from a re-analysis of the deposited data

How the results depend on the processing

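Of 294 recomputed ratios of the 7 genes under 7 alternatives, 279 moved by less than 1 error SD and 12 changed sign. Many of the 294 could not move at all. The 7 genes read at least 416 on every array, so a floor of 50 or 200 left them unchanged. Averaging probe sets could move only Acads, Cpt2 and Cd36, and leaving out relaxed probe sets only Acads. For Cpt2 and Cd36 averaging could only shrink each ratio, because their second probe set was below the floor on all arrays. Ratios past 1.5-fold came from scaling to ribosomal protein probe sets alone, 5 in all: Fabp3 at 3 h (-0.60) and 24 h (-0.66) and Cd36 at 24 h (-0.75) against adrenalectomized muscle, and Fabp3 at 3 h (-0.61) and 24 h (-0.67) against intact muscle, giving 1, 2, 1 and 1 genes past 1.5-fold in these comparisons. That scaling moved the all-gene median to -0.20 at 3 h and -0.27 at 24 h against adrenalectomized muscle, and after subtracting the all-gene median none was past 1.5-fold. It moved the median of the 7 to -0.40 and -0.46, and the other pathway genes past 1.5-fold to 11 at 24 h against adrenalectomized and 7 against intact muscle, from 2 and 4. Median scaling gave 4 at 24 h against adrenalectomized muscle. With a floor of 50 the counts of other pathway genes were 2 for adrenalectomized against intact and 7 for 24 h against 3 h, from 1 and 4, and with a floor of 200 they were 0, 3 and 1 in the main comparisons, from 1, 6 and 2. All genes past 1.5-fold numbered 300, 606, 623, 725, 613 and 621 for adrenalectomized against intact, 3 h and 24 h against adrenalectomized, 24 h against 3 h, and 3 h and 24 h against intact. These became 700, 1024, 1077, 1155, 1050 and 1082 with a floor of 50 and 112, 330, 292, 383, 337 and 281 with a floor of 200, where more or fewer dim genes can pass, and ribosomal scaling gave 1019 at 24 h against adrenalectomized muscle. The share of these that were higher was 54.3%, 51.7%, 54.9%, 49.5%, 57.3% and 59.6%. Ribosomal scaling made it 78.4%, 24.1%, 14.9%, 35.9%, 44.5% and 30.2%, median scaling 38.4% for adrenalectomized and 46.0% for 24 h against intact, and quantile normalization 49.4% for the latter. Leaving out the relaxed probe set moved Acads at 3 h to 0.12 against adrenalectomized and -0.11 against intact muscle. The count of 5 genes lower on both cortisol arrays, an order looked at after the data had been seen, was 5 or 6 under every alternative. No array could be left out and no paired analysis was possible because each group had 1 array.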
